A study of Mus musculus with 12 samples.

Results

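Collagen hydroxylation, folding and crosslinking genes were followed in RNA-seq libraries of mouse bone marrow mesenchymal stem cells (MSCs). The 10 genes were Lox, Loxl1, Loxl2 and Loxl3, Plod1 and Plod2, P4ha1 and P4ha2, Serpinh1 and Pcolce. They were chosen by name as collagen-processing genes. The rule used no measured value, but the list was drawn up with earlier results of these data known. The genes were found by matching Ensembl identifiers to mouse symbols. All 10 were among the 54532 genes of the deposited table and among the 12871 genes tested. The cells came from 4-week-old C57BL/6 mice and were used at passage 3, and RNA was taken 5 days after osteogenic or adipogenic induction. Control cells carried floxed Chd7 alleles without Cre (Chd7fl/fl, labelled WT), and the others came from Prx1-cre;Chd7fl/fl mice (labelled Chd7 KO), with 3 libraries for each genotype and medium and 12 in all. The osteogenic medium was supplied with ascorbic acid (50 µM), β-glycerophosphate (10 mM) and dexamethasone (10 nM). The adipogenic medium was supplied with dexamethasone (1 µM), insulin (10 µg/ml) and isobutylmethylxanthine (0.5 µM), and no ascorbic acid was listed for it. Medium, ascorbic acid and dexamethasone dose therefore cannot be told apart. Prx1-cre is active in early limb mesenchyme and removes the floxed exon there, so cells of other origin in the same dish keep the gene. The labels do not say whether the 3 libraries of a group came from separate animals or dishes, and p-values measure only the spread between these libraries.

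A procollagen chain is modified before it folds. Prolyl 4-hydroxylase, a tetramer of α subunits (P4HA) and protein disulfide isomerase, makes the hydroxyproline that keeps the triple helix stable at body temperature, and lysyl hydroxylases (PLOD) make the hydroxylysine used for glycosylation and crosslinks. Both enzyme families need iron, 2-oxoglutarate and oxygen, and ascorbate keeps their iron reduced. The folded molecule is held by the chaperone HSP47 (encoded by Serpinh1) on its way through the secretory pathway. Outside the cell BMP1 cuts off the C-propeptide, aided by the enhancer protein encoded by Pcolce, and copper-dependent lysyl oxidases (LOX) oxidise lysine residues so that fibrils, and elastin, become crosslinked. Osteoblasts and fibroblasts are the classical users of this machinery.

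Values are FPKM, fragments per kilobase of gene, as deposited after a scaling between libraries that left the median gene level. Each library held 17496343 to 21099588 fragments on genes, and the 10 genes had 1421 to 53150 fragments each in a library. Chd7, the targeted gene, stood at 2.64, 2.67 and 2.77 FPKM in control and 2.03, 2.35 and 2.28 FPKM in KO-labelled osteogenic libraries, and at 2.26, 1.81 and 2.23 FPKM in control and 2.03, 2.35 and 2.48 FPKM in KO-labelled adipogenic libraries. Its fold change passed no test in either medium (limma adjusted p = 0.16 and 0.428), and in adipogenic medium it was not lower, so these libraries are called KO-labelled throughout and every direction of genotype rests on the labels. Loss of 1 exon need not lower a level summed over the gene, and levels per exon were not analysed here. Of 12 mesenchymal markers 11 were tested, and their summed level was 507 to 644 FPKM over all libraries. Thy1, which the same list holds, was low, with means of 0.372 to 0.725 FPKM over the groups. All 14 macrophage markers were also expressed, with a sum of 6328 to 18890.3 FPKM. Among adipocyte markers Adipoq had a mean of 0.121 FPKM in control (SD 0.0776, n = 3) and 0.233 FPKM in KO-labelled adipogenic libraries (SD 0.0684, n = 3), and Lep was listed at 0 in all 3 control adipogenic libraries. Control adipogenic library 2 stood apart. Its correlation with another library of its group across genes was as low as 0.939, where libraries of the other groups reached 0.980 or more with each other, and limma gave it an array weight of 0.073, the lowest of the 12. For the 10 genes, both values are given where leaving it out changed a call or moved a fold change by more than 1.5 times.

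**Figure D1:**
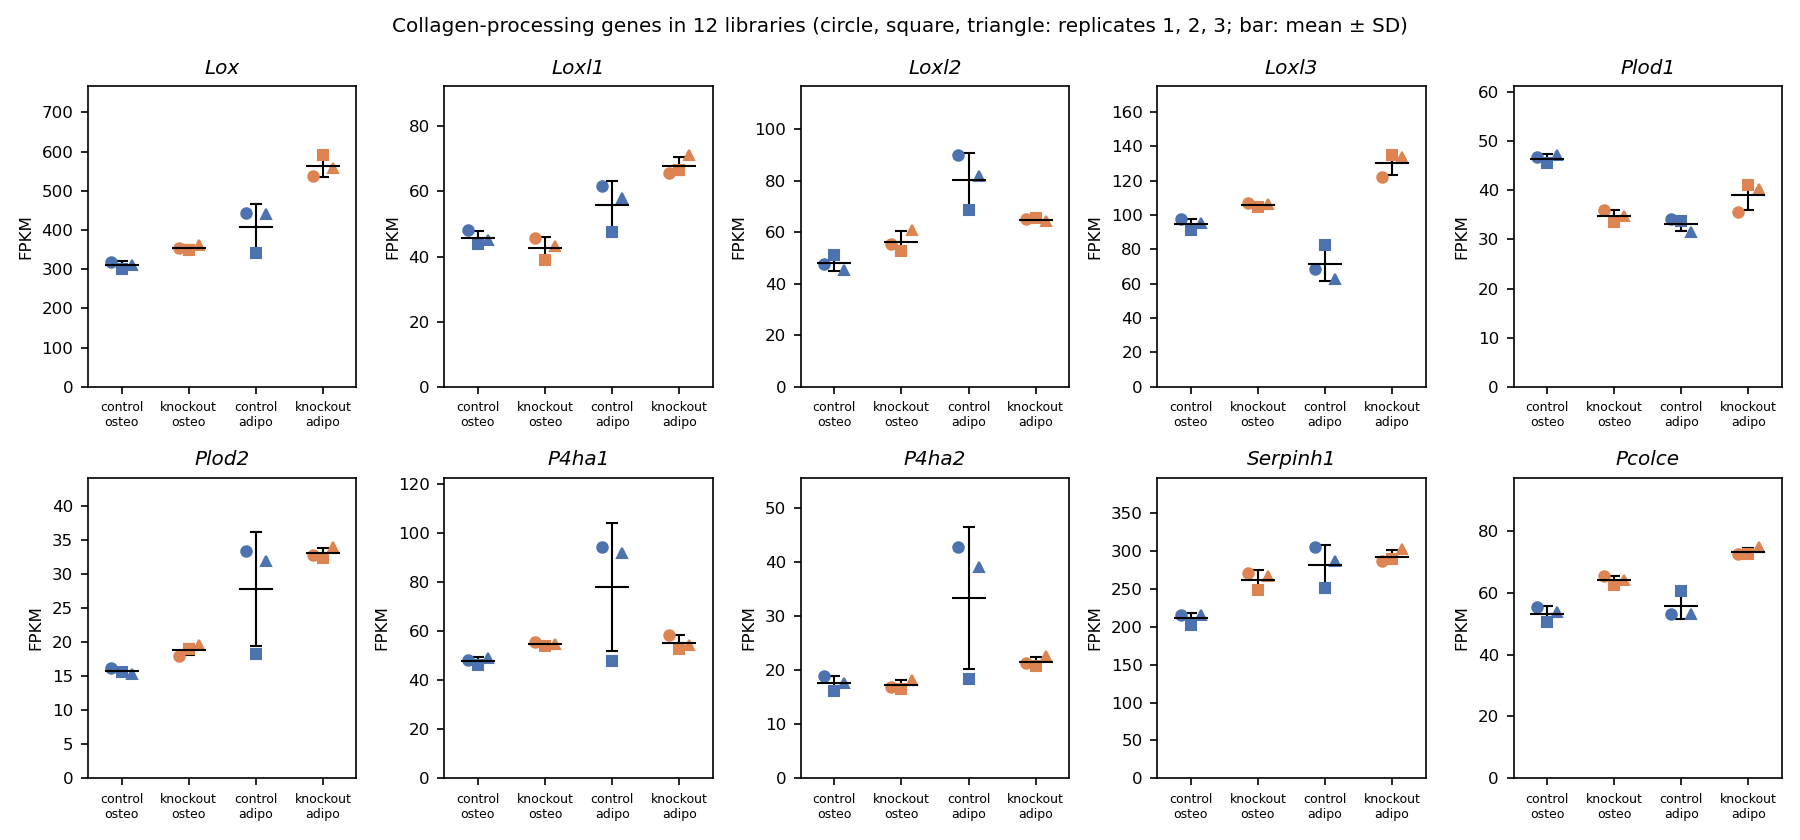
FPKM of the 10 genes (y axis, from 0) in each of the 12 libraries by group (x axis), blue for control and orange for KO-labelled libraries; circle, square and triangle are libraries 1, 2 and 3, and bars show the mean ± SD of 3 libraries. In the control adipogenic group the square (library 2) lies far below the other points for P4ha1 (47.8 against 94.4 and 92.0), P4ha2 (18.4 against 42.8 and 39.1) and Plod2 (18.3 against 33.4 and 31.9).

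The first question was which of these genes differed between genotypes in each medium. In osteogenic medium Serpinh1 and Pcolce were higher and Plod1 was lower in KO-labelled libraries, all by less than 0.5 on the log2 scale. In adipogenic medium Loxl3, Lox, Pcolce, Loxl1 and Plod1 were higher and Loxl2 was lower, with Loxl3 the furthest from control at 1.82-fold. Genes were called at a limma adjusted p under 0.05 over all genes tested, and fold changes are on the log2(FPKM + 1) scale. In osteogenic medium 3 of 10 genes were called, 2 higher and 1 lower, where 9.09% of all genes were called, 4.94% higher and 4.15% lower. In adipogenic medium 6 of 10 were called, 5 higher and 1 lower, where 33.2% of all genes were called, 16.7% higher and 16.5% lower. The median fold change of the 10 genes was 0.193 in osteogenic and 0.254 in adipogenic medium, and that of all genes was -0.006 and -0.015. Without control adipogenic library 2, 8 genes were called in osteogenic medium (7 higher, 1 lower) with a median of 0.193, and 7 in adipogenic medium (4 higher, 3 lower) with a median of 0.099. Of all genes 22.2% and 51.0% were then called. That library takes no part in the osteogenic fold changes and enters their test through the spread that the 4 groups share.

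The genotype effect itself differed between media for Loxl3 and Plod1, which were shifted towards higher values in adipogenic medium, and for Loxl2, which was shifted the other way. These were 3 of 10 genes, 2 higher and 1 lower, where 20.4% of all genes were called, 10.9% higher and 9.58% lower. Without control adipogenic library 2, 9 genes were called, 4 higher and 5 lower, where 42.2% of all genes were called. The media were compared within each genotype as well. In control cells 8 of 10 genes were called, with Lox, Loxl2, Plod2, P4ha1, P4ha2 and Serpinh1 higher and Loxl3 and Plod1 lower in adipogenic medium, where 22.8% of all genes were called, 10.5% higher and 12.3% lower. In KO-labelled cells Lox, Loxl1, Loxl3, Plod2 and Pcolce were higher and no gene was called lower, where 27.9% of all genes were called, 13.9% higher and 14.0% lower. The other 5 genes had positive fold changes of 0.01 to 0.31 there that were not called. Without control adipogenic library 2 both counts were 9 of 10, with 7 higher and 2 lower in control and 9 higher in KO-labelled cells, where 47.8% and 42.5% of all genes were called. The media comparison in control cells shares its libraries with the genotype comparisons, so these counts are not independent of each other. Marker lists did not all follow the medium named on the label. Of 4 adipocyte markers tested 2 were called lower and 0 higher in adipogenic medium in control cells (median -0.696). In KO-labelled cells 2 were higher and 0 lower (median 0.597). Of 6 osteoblast markers tested 2 were higher and 1 lower in control and 6 higher in KO-labelled cells (medians of 0.256 and 0.923). Directions between media thus rest on the labels, as those of genotype do.

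**Figure D2:**
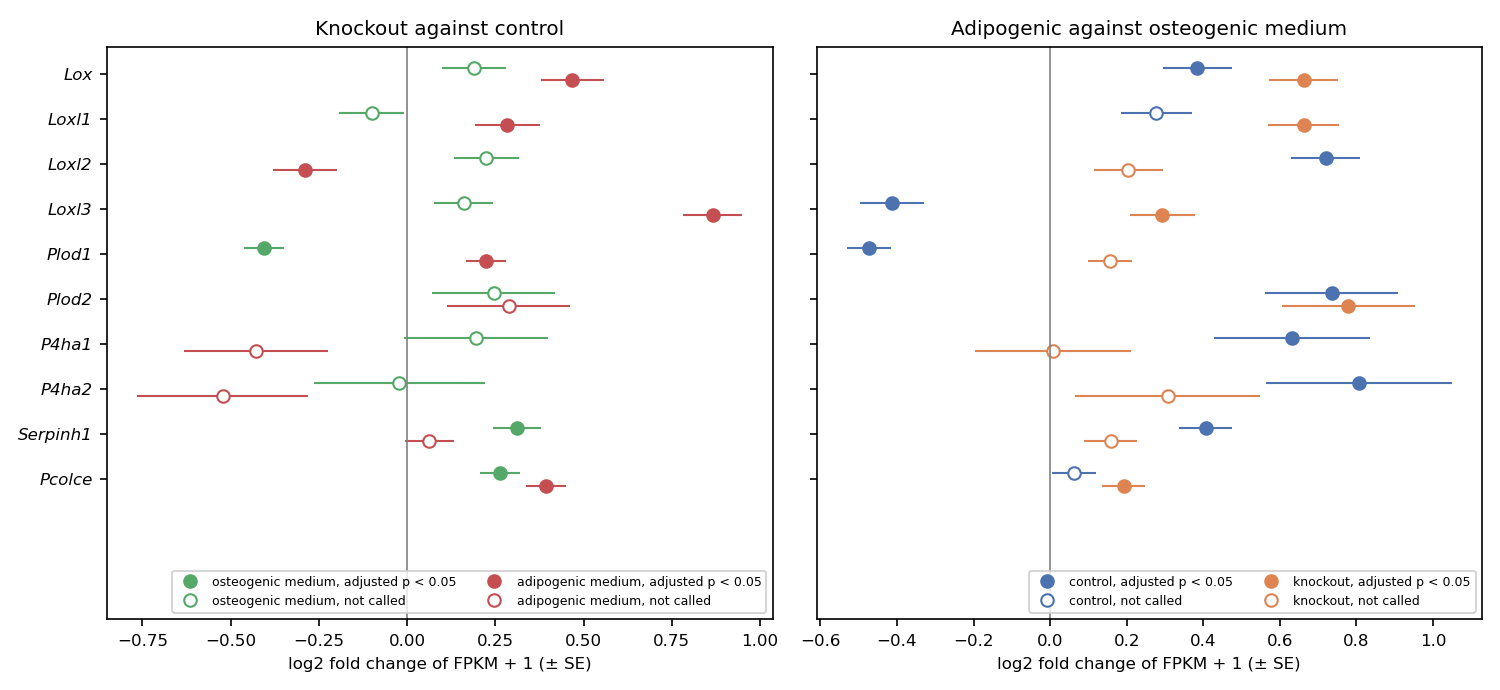
Fold changes of the 10 genes on the log2(FPKM + 1) scale (x axis) with the limma standard error as bars; the left panel compares KO-labelled with control libraries in osteogenic (green) and adipogenic (red) medium, the right panel adipogenic with osteogenic medium in control (blue) and KO-labelled (orange) cells, and filled points had an adjusted p under 0.05. Loxl3 stands furthest to the right for genotype in adipogenic medium (0.87), and all 10 orange points lie above 0.

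The deposited values had been scaled so that the median gene was level between libraries. When values were instead made to sum alike in every library (TPM), the median of all genes went from -0.015 to 0.139 for genotype in adipogenic medium, where 78.4% of the called genes were then higher and 21.6% lower (50.4% and 49.6% as deposited). The difference between media moved from -0.003 to 0.159, with 75.4% of calls higher and 24.6% lower (53.1% and 46.9% as deposited). For control cells the medium comparison moved from 0.006 to -0.101, with 30.6% of calls higher and 69.4% lower (46.1% and 53.9% as deposited), and for KO-labelled cells from 0.004 to 0.056, with 65.5% higher and 34.5% lower (49.7% and 50.3% as deposited). None of the calls on the 10 genes turned its direction on this scale, and calls lost or gained on it are given with several of the genes. The values given are those of the deposited scale, that is, relative to the median gene.

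P4ha1 (ENSMUSG00000019916, chr10:59323296-59373304, plus strand, GRCm38) and P4ha2 (ENSMUSG00000018906, chr11:54100095-54131665, plus strand) encode the catalytic α subunits of prolyl 4-hydroxylase. P4ha1 stood at 48.4, 46.1 and 49.0 FPKM in control and 55.7, 54.1 and 54.9 FPKM in KO-labelled osteogenic libraries, and at 94.4, 47.8 and 92.0 FPKM in control and 58.6, 52.7 and 54.5 FPKM in KO-labelled adipogenic libraries. P4ha2 stood at 18.9, 16.2 and 17.6 FPKM in control and 17.0, 16.5 and 18.3 FPKM in KO-labelled osteogenic libraries, and at 42.8, 18.4 and 39.1 FPKM in control and 21.4, 20.7 and 22.6 FPKM in KO-labelled adipogenic libraries. Both genes were thus high in control adipogenic libraries 1 and 3 alone, while library 2 lay below every KO-labelled adipogenic library and within the osteogenic range. For P4ha1 the KO-labelled adipogenic mean was 55.2 ± 3.03 FPKM against 78.0 ± 26.2 FPKM in control (n = 3 each, SD), a log2 fold change of -0.43 (SE 0.204, limma adjusted p = 0.132). For P4ha2 the means were 21.6 ± 0.959 and 33.4 ± 13.2 FPKM (SD, n = 3 each), with a log2 fold change of -0.52 (SE 0.242, limma adjusted p = 0.123). The groups overlapped through library 2 and neither gene was called. Without that library the fold changes were -0.74 (limma adjusted p = 1.58e-06) and -0.89 (limma adjusted p = 6.04e-06), so whether they were called depended on it. The genotype effect differed between media by -0.62 for P4ha1 and -0.50 for P4ha2 (limma adjusted p = 0.154 and 0.327), and without that library by -0.94 and -0.87 (limma adjusted p = 4.09e-06 and 8e-05). In osteogenic medium the log2 fold changes were 0.20 for P4ha1 (limma adjusted p = 0.637, and 0.00966 without control adipogenic library 2) and -0.02 for P4ha2 (limma adjusted p = 0.974). Between media, control cells had log2 fold changes of 0.63 for P4ha1 (limma adjusted p = 0.0497) and 0.81 for P4ha2 (limma adjusted p = 0.039), with overlapping libraries. Both calls were lost on leaving out any library other than control adipogenic library 2 (limma adjusted p of 0.062 to 0.175 for P4ha1 and 0.0509 to 0.14 for P4ha2), and without that library the changes were 0.95 and 1.18 (limma adjusted p = 6.56e-07 and 1.67e-06). In KO-labelled cells P4ha1 differed between media by 0.01 (SE 0.204, limma adjusted p = 0.984) and P4ha2 by 0.31 (SE 0.242, limma adjusted p = 0.384, and 0.00336 without control adipogenic library 2).

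Because P4ha1 and P4ha2 were high in control adipogenic libraries 1 and 3 alone, their promoter windows are shown, beside those of Serpinh1, which was high in these and in KO-labelled adipogenic libraries, and of Pcolce, which was high in KO-labelled libraries (RefSeq, GRCm38.p6, 250 bases before to 50 after the start site, 5′ to 3′ on the strand of the gene). Capitals mark ACGTG or GCGTG, the core letters of the hypoxia response element, on either strand, so that a match on the opposite strand reads CACGT or CACGC.
P4ha1, chr10:59323046-59323345, plus strand: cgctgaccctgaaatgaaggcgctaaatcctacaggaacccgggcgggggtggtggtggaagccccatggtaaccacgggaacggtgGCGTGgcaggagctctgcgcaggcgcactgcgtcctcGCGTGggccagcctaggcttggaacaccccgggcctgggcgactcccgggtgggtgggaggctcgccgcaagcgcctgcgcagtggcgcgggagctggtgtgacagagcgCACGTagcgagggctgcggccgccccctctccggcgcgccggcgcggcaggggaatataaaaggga
P4ha2, chr11:54100674-54100973, plus strand: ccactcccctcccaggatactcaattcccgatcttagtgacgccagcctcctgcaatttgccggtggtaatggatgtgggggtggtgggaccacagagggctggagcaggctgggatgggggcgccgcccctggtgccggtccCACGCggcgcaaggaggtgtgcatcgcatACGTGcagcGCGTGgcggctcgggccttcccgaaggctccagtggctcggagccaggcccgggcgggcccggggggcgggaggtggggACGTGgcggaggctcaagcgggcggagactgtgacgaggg
Serpinh1, chr7:99353190-99353489, minus strand: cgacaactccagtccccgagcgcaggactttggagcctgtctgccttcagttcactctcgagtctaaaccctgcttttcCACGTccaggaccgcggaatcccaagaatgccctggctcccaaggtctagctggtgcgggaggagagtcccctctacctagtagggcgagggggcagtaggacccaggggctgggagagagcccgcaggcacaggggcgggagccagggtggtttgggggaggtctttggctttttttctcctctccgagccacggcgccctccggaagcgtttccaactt
Pcolce, chr5:137611355-137611654, minus strand: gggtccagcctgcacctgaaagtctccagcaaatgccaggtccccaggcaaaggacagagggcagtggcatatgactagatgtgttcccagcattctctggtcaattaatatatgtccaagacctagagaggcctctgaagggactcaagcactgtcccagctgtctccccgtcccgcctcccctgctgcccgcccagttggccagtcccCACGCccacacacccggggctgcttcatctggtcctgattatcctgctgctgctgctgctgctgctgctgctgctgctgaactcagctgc
P4ha2 held 4 matches (107, 78 and 69 bases before the start and 11 after it) and P4ha1 held 3 (163, 126 and 16 bases before it). Serpinh1 held 1 match 171 bases before the start, and Pcolce 1 match 40 bases before it. Plod1 (chr4:147936727-147937026, minus strand) held 2. Of all 32851 windows 43.8% held at least 1 such match (ACGTG 19.6%, GCGTG 32.4%), and 70.3% of the letters of the P4ha1 and P4ha2 windows were G or C, against a median of 52.7% over all windows. AGAACA, 1 arm of the glucocorticoid response element, was in 19.0% of all windows and in none of the 5. TATAAA was in 13.6% of all windows, in that of P4ha1 40 bases after the start and, on the opposite strand, in that of Plod1 232 bases before it. Windows were found for 5 of the 10 genes, and Lox, Loxl1, Loxl2, Loxl3 and Plod2 had none. The match counts are a description and no binding was measured.

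**Figure D3:**
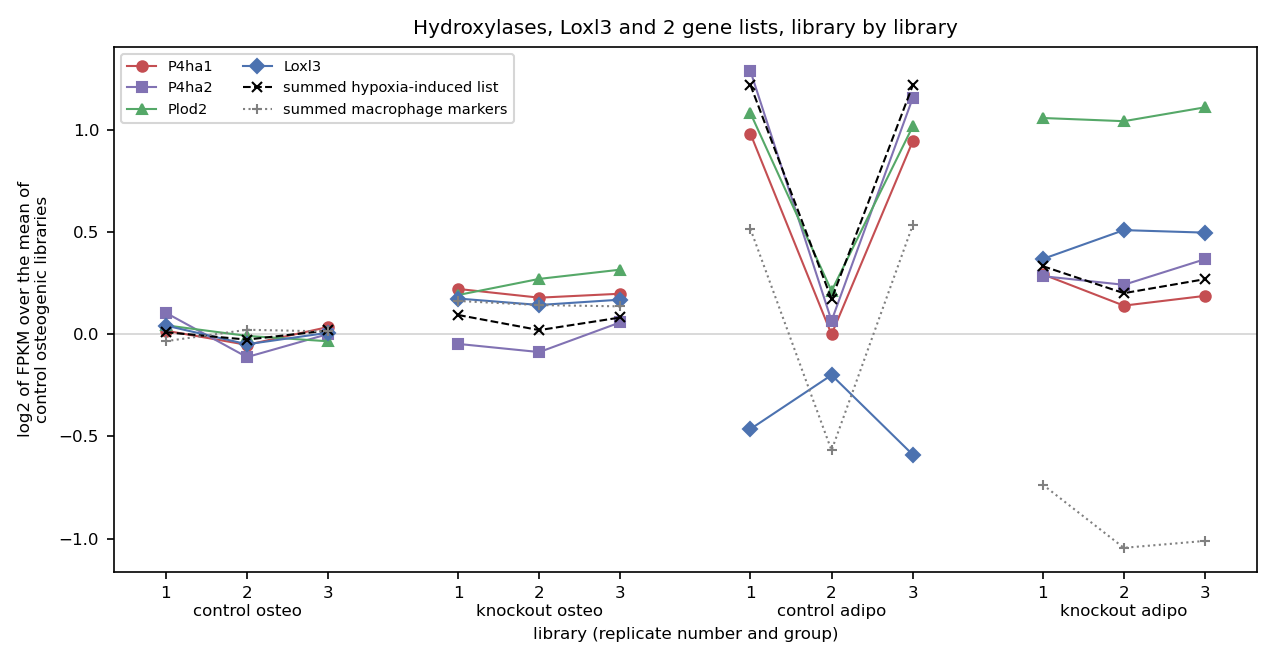
log2 ratio of FPKM to the mean of the 3 control osteogenic libraries (y axis) in each library (x axis) for P4ha1, P4ha2, Plod2 and Loxl3, for the summed hypoxia-induced genes (dashed) and for the summed macrophage markers (dotted); lines join the 3 libraries of a group only to guide the eye. Control adipogenic libraries 1 and 3 are high for P4ha1, P4ha2, Plod2 and both sums, library 2 is near the osteogenic level for the 3 hydroxylases, and Loxl3 runs the other way within this group (68.6, 82.4 and 62.9 FPKM).

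The libraries in which P4ha1 and P4ha2 were high also had high levels of hypoxia-induced genes. The summed level of 23 such genes, many of them of glycolysis and none of them among the 10, was 2858 and 2852 FPKM in control adipogenic libraries 1 and 3 and 1383 FPKM in library 2, against 1410.5 to 1546 FPKM in KO-labelled adipogenic and 1205 to 1310.0 FPKM in all osteogenic libraries. Of the 23 genes 1 was called higher and 10 lower in KO-labelled adipogenic libraries, with a median of -0.691, and 1 higher and 19 lower without control adipogenic library 2. Of all genes 33.2% were called for genotype in adipogenic medium, and 51.0% without that library. Adm, which encodes adrenomedullin, changed by 1.21 on the log2 scale (limma adjusted p = 1.54e-05), Bnip3 by -1.16 (limma adjusted p = 0.0491) and Ero1l by -1.08 (limma adjusted p = 0.0434). The calls on Bnip3 and Ero1l were lost on leaving out any library other than control adipogenic library 2 (limma adjusted p of 0.0663 to 0.168 and 0.0598 to 0.151). As a sum, macrophage markers moved over the same libraries, and the single markers did not all follow. Their summed level was 18659 and 18890.3 FPKM in control adipogenic libraries 1 and 3, 8805 FPKM in library 2, 6328 to 7842 FPKM in KO-labelled adipogenic, 12749 to 13252 FPKM in control osteogenic and 14345 to 14610.4 FPKM in KO-labelled osteogenic libraries, and no marker was at 0 in any library. Of the 14, 10 were called lower and 1 higher in KO-labelled adipogenic libraries (11 lower and 3 higher without control adipogenic library 2), where Adgre1 changed by -2.05, Fcgr1 by -1.78 and Itgam by -1.53 (limma adjusted p = 0.0156, 0.00448 and 0.00696). The Adgre1 call was lost without control adipogenic library 1 or 3 (limma adjusted p = 0.0592 and 0.0599) or KO-labelled adipogenic library 2 or 3 (limma adjusted p = 0.0554 and 0.0592). Between media in control cells, 1 of the 14 markers was called higher and 4 lower in adipogenic medium. Without control adipogenic library 2, 8 were called higher and 5 lower. Of all genes 22.8% were called in that comparison, and 47.8% without that library. In bulk RNA, fewer cells of a type and less RNA per cell cannot be told apart. The part of macrophage RNA or of hypoxia-induced expression in the values of P4ha1, P4ha2 and Plod2 was not tested.

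Plod1 (ENSMUSG00000019055, chr4:147909753-147936767, minus strand) and Plod2 (ENSMUSG00000032374, chr9:92542223-92608428, plus strand) encode lysyl hydroxylases 1 and 2, of which the first acts mainly on the helix and the second on the telopeptides of collagen. Plod1 stood at 46.7, 45.5 and 47.1 FPKM in control and 36.0, 33.6 and 34.8 FPKM in KO-labelled osteogenic libraries, and at 34.2, 33.8 and 31.5 FPKM in control and 35.6, 41.1 and 40.2 FPKM in KO-labelled adipogenic libraries. It was thus highest in control osteogenic libraries, and neither pair of genotypes overlapped. In osteogenic medium Plod1 fell from 46.4 ± 0.843 to 34.8 ± 1.2 FPKM (n = 3 each, SD), a log2 fold change of -0.41 (SE 0.0575, limma adjusted p = 0.00223). This call held in all 12 fits that each left out 1 library. In adipogenic medium it rose from 33.2 ± 1.42 to 38.9 ± 2.93 FPKM (SD, n = 3 each), by 0.22 (SE 0.0575, limma adjusted p = 0.0145). That call was lost when only the adipogenic libraries were fitted (limma adjusted p = 0.104). It was also lost without control adipogenic library 3 (0.19, limma adjusted p = 0.0557), KO-labelled adipogenic library 2 (0.18, limma adjusted p = 0.0575) or KO-labelled adipogenic library 3 (0.20, limma adjusted p = 0.0593). The genotype effect differed between media by 0.63 (SE 0.0813, limma adjusted p = 0.000697), and this held in all 12 such fits. In control cells Plod1 was lower in adipogenic than in osteogenic medium, by -0.47 (limma adjusted p = 0.0008), while in KO-labelled cells the change was 0.16 (limma adjusted p = 0.069). That last value passed without control adipogenic library 2 (limma adjusted p = 0.0459) or KO-labelled adipogenic library 1 (0.22, limma adjusted p = 0.0132).

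Plod2 stood at 16.2, 15.7 and 15.4 FPKM in control and 18, 19.0 and 19.6 FPKM in KO-labelled osteogenic libraries, and at 33.4, 18.3 and 31.9 FPKM in control and 32.8, 32.5 and 34.0 FPKM in KO-labelled adipogenic libraries. All KO-labelled adipogenic libraries were as high as control libraries 1 and 3, and library 2 again lay at the osteogenic level. No genotype effect was called, with log2 fold changes of 0.24 in osteogenic (SE 0.174, limma adjusted p = 0.457) and 0.29 in adipogenic medium (SE 0.174, limma adjusted p = 0.228). Without control adipogenic library 2 the adipogenic value was 0.02 (limma adjusted p = 0.736) and the osteogenic one was called (0.24, limma adjusted p = 0.00237). On the TPM scale the adipogenic value was 0.47 (limma adjusted p = 0.016), relative to a median of 0.139. The difference of the genotype effect between media was 0.04 (limma adjusted p = 0.92), and without that library it was -0.22 (limma adjusted p = 0.0136). Plod2 was higher in adipogenic than in osteogenic medium in both genotypes, by 0.74 in control (SE 0.174, limma adjusted p = 0.0161) and 0.78 in KO-labelled cells (SE 0.174, limma adjusted p = 0.00825). The control call was lost without control osteogenic library 2 or 3 (limma adjusted p = 0.0524 and 0.0518) or control adipogenic library 1 or 3 (limma adjusted p = 0.06 and 0.0647), and the KO-labelled call in none of the 12 such fits. In KO-labelled adipogenic libraries Plod2 was thus as high as in control libraries 1 and 3, and P4ha1 and P4ha2 were not. No test compared the genes with each other.

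Serpinh1 (ENSMUSG00000070436, chr7:99345376-99353239, minus strand) encodes HSP47, the collagen-specific chaperone of the endoplasmic reticulum. Its level was 215, 203 and 216 FPKM in control and 272, 249 and 268 FPKM in KO-labelled osteogenic libraries, and 306, 252 and 287 FPKM in control and 287, 290.1 and 302 FPKM in KO-labelled adipogenic libraries. Control osteogenic libraries were the lowest and overlapped no other group, and the adipogenic genotypes overlapped. In osteogenic medium the mean rose from 211 ± 7.11 to 263 ± 12.1 FPKM (n = 3 each, SD), a log2 fold change of 0.31 (SE 0.0692, limma adjusted p = 0.0209). This call was lost without control osteogenic library 1, 2 or 3 (limma adjusted p = 0.0581, 0.0878 and 0.0567), without KO-labelled osteogenic library 1 or 3 (limma adjusted p = 0.0873 and 0.0842) and with no filter on low genes (limma adjusted p = 0.0547). In adipogenic medium the change was 0.06 (SE 0.0692, limma adjusted p = 0.52), -0.01 without control adipogenic library 2 (limma adjusted p = 0.826) and 0.25 on the TPM scale (limma adjusted p = 0.0219) relative to a median of 0.139. Serpinh1 was higher in adipogenic medium in control cells, by 0.41 (SE 0.0692, limma adjusted p = 0.00399, called in all 12 fits without 1 library), and differed by 0.16 in KO-labelled cells (limma adjusted p = 0.117, 0.0186 without control adipogenic library 2, and 0.0497 on the TPM scale). The genotype effect differed between media by -0.25 (limma adjusted p = 0.101, and 0.00368 without control adipogenic library 2).

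Pcolce (ENSMUSG00000029718, chr5:137605103-137613784, minus strand) encodes the enhancer of procollagen C-proteinase. It stood at 55.4, 50.5 and 53.7 FPKM in control and 65.4, 62.5 and 64.1 FPKM in KO-labelled osteogenic libraries, and at 53.2, 60.6 and 53.2 FPKM in control and 72.6, 72.4 and 74.8 FPKM in KO-labelled adipogenic libraries. Every KO-labelled library was above every control library, in both media. The osteogenic mean rose from 53.2 ± 2.51 to 64.0 ± 1.48 FPKM (n = 3 each, SD), a log2 fold change of 0.26 (SE 0.0567, limma adjusted p = 0.0185). The adipogenic mean rose from 55.7 ± 4.28 to 73.3 ± 1.33 FPKM (SD, n = 3 each), by 0.39 (SE 0.0567, limma adjusted p = 0.000691), and this held in all 12 fits without 1 library. The osteogenic call did not hold without control osteogenic library 2 or 3 (limma adjusted p = 0.082 and 0.0564), without KO-labelled osteogenic library 1 or 3 (limma adjusted p = 0.0778 and 0.0698) or on the TPM scale (limma adjusted p = 0.288). A difference of the effect between media was not called (0.13, limma adjusted p = 0.276, and 0.0213 without control adipogenic library 2). Between media Pcolce changed by 0.06 in control (limma adjusted p = 0.454, and 0.00 with 0.994 without control adipogenic library 2) and by 0.19 in KO-labelled cells (limma adjusted p = 0.0296). The latter call was lost on leaving out any KO-labelled library, osteogenic or adipogenic (limma adjusted p of 0.0547 to 0.0988), and on the TPM scale (limma adjusted p = 0.141). With all 12 libraries fitted, Pcolce was the only one of the 10 genes that was called in both media in the same direction. Without control adipogenic library 2, Lox and Loxl3 were called higher in both media as well.

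In the lysyl oxidase family Lox was the most abundant by far on the FPKM scale, which is per length. Lox (ENSMUSG00000024529) stood at 319.5, 301 and 312 FPKM in control and 355, 348 and 361 FPKM in KO-labelled osteogenic libraries, and at 443, 342 and 440.5 FPKM in control and 537, 590.1 and 559 FPKM in KO-labelled adipogenic libraries. The genotypes did not overlap in either medium, and control adipogenic library 2 lay below all KO-labelled osteogenic libraries. In adipogenic medium the mean rose from 409 ± 57.9 to 562 ± 26.9 FPKM (n = 3 each, SD), a log2 fold change of 0.47 (SE 0.0898, limma adjusted p = 0.00349), and without control adipogenic library 2 by 0.34 (limma adjusted p = 0.000154). The call was lost when only the adipogenic libraries were fitted (limma adjusted p = 0.056). In osteogenic medium the change was 0.19 (SE 0.0898, limma adjusted p = 0.241, and 0.00866 without control adipogenic library 2). Lox was also higher in adipogenic than in osteogenic medium, by 0.38 in control (SE 0.0898, limma adjusted p = 0.0154) and 0.66 in KO-labelled cells (SE 0.0898, limma adjusted p = 0.000553). The former call was lost without control osteogenic library 2 (limma adjusted p = 0.0576) or control adipogenic library 1 or 3 (limma adjusted p = 0.0596 and 0.0612). A difference of the genotype effect between media was not called (0.28, limma adjusted p = 0.149, and 0.15 with 0.0631 without control adipogenic library 2), but passed on the TPM scale (0.48, limma adjusted p = 0.00812), where the median of all genes was 0.159.

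Loxl3 (ENSMUSG00000000693, chr6:83034173-83052562, plus strand), a lysyl oxidase with scavenger receptor domains, showed the furthest genotype change of the 10. It stood at 97.5, 91.5 and 95.1 FPKM in control and 107, 105 and 106 FPKM in KO-labelled osteogenic libraries, and at 68.6, 82.4 and 62.9 FPKM in control and 122, 135 and 134 FPKM in KO-labelled adipogenic libraries. The 4 groups did not overlap, and the order from low to high was control adipogenic, control osteogenic, KO-labelled osteogenic and KO-labelled adipogenic. In adipogenic medium the mean rose from 71.3 ± 10.0 to 130.1 ± 6.95 FPKM (n = 3 each, SD), a log2 fold change of 0.87 (SE 0.0842, limma adjusted p = 6.82e-05), and without control adipogenic library 2 by 0.97 (limma adjusted p = 6.56e-07). The osteogenic change was 0.16 (SE 0.0842, limma adjusted p = 0.294, and 0.0378 without that library). The genotype effect differed between media by 0.71 (SE 0.119, limma adjusted p = 0.00291). Adipogenic medium went with less Loxl3 in control cells (-0.41, limma adjusted p = 0.00907) and more in KO-labelled cells (0.29, limma adjusted p = 0.0263). The control and interaction calls held in all 12 fits without 1 library, and the KO-labelled one was lost without KO-labelled osteogenic library 1, 2 or 3 (limma adjusted p = 0.0627, 0.0788 and 0.0671), without KO-labelled adipogenic library 2 or 3 (limma adjusted p = 0.0817 and 0.0838) and on the TPM scale (limma adjusted p = 0.11).

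Loxl2 (ENSMUSG00000034205, chr14:69609068-69695834, plus strand), the other member of the family described here with scavenger receptor domains, went the opposite way. Its values were 47.5, 51.3 and 45.3 FPKM in control and 55.5, 52.6 and 60.8 FPKM in KO-labelled osteogenic libraries, and 89.8, 68.8 and 81.7 FPKM in control and 65.0, 65.4 and 64.3 FPKM in KO-labelled adipogenic libraries. The 4 groups did not overlap, with control osteogenic lowest and control adipogenic highest. In adipogenic medium Loxl2 fell from 80.1 ± 10.6 to 64.9 ± 0.561 FPKM (n = 3 each, SD), a log2 fold change of -0.29 (SE 0.0909, limma adjusted p = 0.0336). That call was lost without control adipogenic library 1 or 3 (limma adjusted p = 0.115 and 0.0935), without KO-labelled adipogenic library 1, 2 or 3 (limma adjusted p = 0.0686, 0.076 and 0.0908), with no filter (limma adjusted p = 0.068) and on the TPM scale (-0.10, limma adjusted p = 0.375), and without control adipogenic library 2 it was -0.39 (limma adjusted p = 0.00101). The call was also lost when only the adipogenic libraries were fitted. In osteogenic medium the change was 0.22 (SE 0.0909, limma adjusted p = 0.167, and 0.0285 without control adipogenic library 2). The effects differed between media by -0.51 (SE 0.129, limma adjusted p = 0.0196), which was lost without control osteogenic library 3 (limma adjusted p = 0.0503), without KO-labelled osteogenic library 3 (limma adjusted p = 0.0507) and on the TPM scale (limma adjusted p = 0.0923). Adipogenic medium went with more Loxl2 in control cells, by 0.72 (SE 0.0909, limma adjusted p = 0.000949), and the change in KO-labelled cells was 0.20 (limma adjusted p = 0.122, and 0.0238 without control adipogenic library 2).

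Loxl1 (ENSMUSG00000032334, chr9:58287738-58313186, minus strand), which is closest to Lox in structure and is known for its part in elastic fibres, changed little with genotype in osteogenic medium. It stood at 48.0, 43.9 and 44.9 FPKM in control and 45.7, 38.8 and 43.1 FPKM in KO-labelled osteogenic libraries, and at 61.7, 47.7 and 58.0 FPKM in control and 65.8, 66.6 and 71.0 FPKM in KO-labelled adipogenic libraries. The osteogenic genotypes overlapped (-0.10, SE 0.0923, limma adjusted p = 0.585) and the adipogenic ones did not. In adipogenic medium the mean rose from 55.8 ± 7.28 to 67.8 ± 2.84 FPKM (SD, n = 3 each), by 0.28 (SE 0.0923, limma adjusted p = 0.0383). The call held in 4 of the 12 fits without 1 library and was lost without control osteogenic library 2 or 3 (limma adjusted p = 0.0522 and 0.0546), KO-labelled osteogenic library 3 (0.055), control adipogenic library 2 or 3 (0.0566, at a fold change of 0.18, and 0.0585) or KO-labelled adipogenic library 1, 2 or 3 (0.0597, 0.0781 and 0.123). The call was also lost when only the adipogenic libraries were fitted. The genotype effect differed between media by 0.38 (limma adjusted p = 0.0627), and by 0.28 without control adipogenic library 2 (limma adjusted p = 0.0366) or 0.46 without control adipogenic library 1 (limma adjusted p = 0.0353). It passed on the TPM scale too (0.58, limma adjusted p = 0.00773), where the median of all genes was 0.159. Between media the change was 0.28 in control (limma adjusted p = 0.0544, and 0.00127 without control adipogenic library 2) and 0.66 in KO-labelled cells (SE 0.0923, limma adjusted p = 0.000642).

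**Figure D4:**
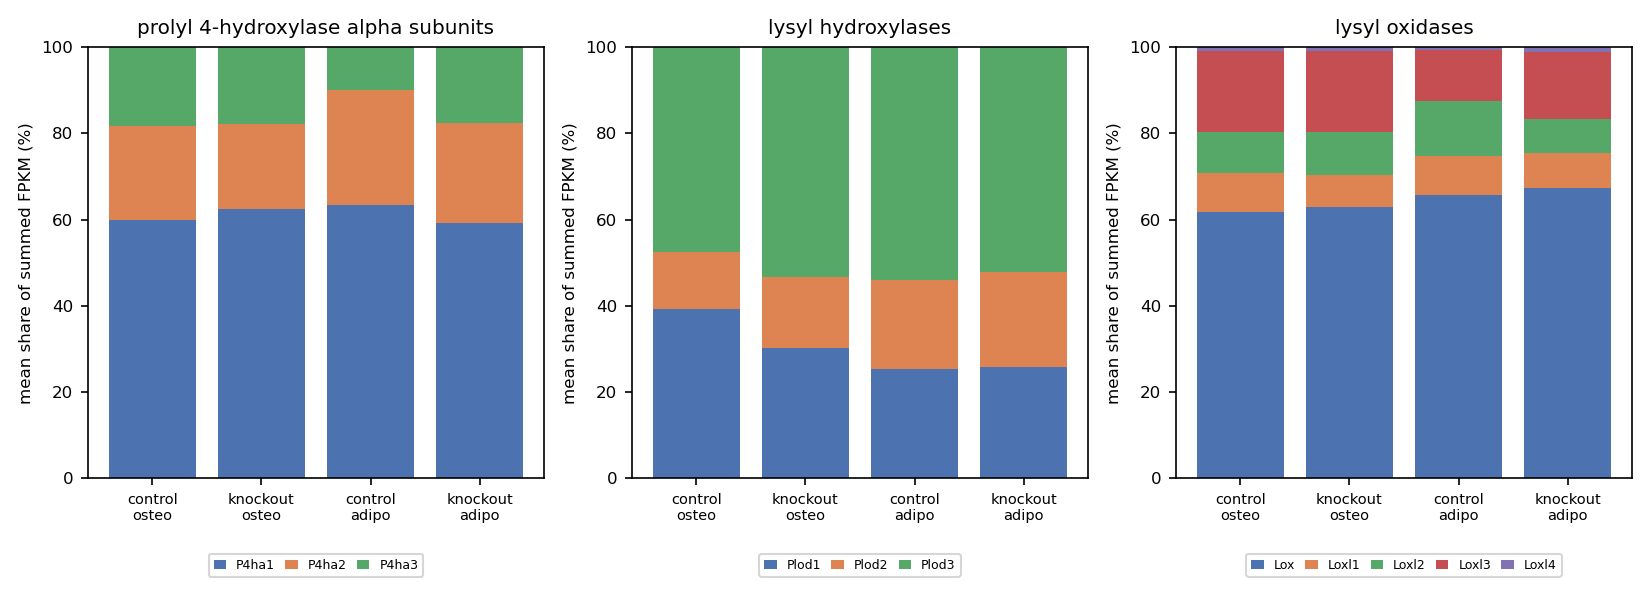
Share of each isoenzyme in the summed FPKM of its family (y axis, %, mean of 3 libraries) in the 4 groups (x axis) for prolyl 4-hydroxylase α subunits, lysyl hydroxylases and lysyl oxidases, with the 3 further members P4ha3, Plod3 and Loxl4 included. Plod1 falls from 39.2% of the lysyl hydroxylases in control osteogenic to 30.2% in KO-labelled osteogenic libraries, and P4ha3 is smallest in control adipogenic libraries (10.0%).

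Shares within a family and ratios of genes in a library do not depend on how libraries were scaled. Plod1 made up 39.2 ± 1.12% of the summed lysyl hydroxylase FPKM in control osteogenic, 30.2 ± 0.359% in KO-labelled osteogenic, 25.3 ± 3.74% in control adipogenic and 25.9 ± 1.42% in KO-labelled adipogenic libraries (SD, n = 3 each). Plod3, which encodes the isoenzyme that also transfers glucose, held 47.5 ± 1.46% in control osteogenic and 52.1 to 54.0% (means) in the other groups. The ratio of Plod1 to Plod2 was 2.88 to 3.06 in control osteogenic, 1.77 to 2.0 in KO-labelled osteogenic, 1.09 to 1.27 in KO-labelled adipogenic and 1.02, 1.85 and 0.989 in control adipogenic libraries. P4ha1 was the leading α subunit in every group, with 59.2 to 63.3% of the family as means. P4ha3 held 10.0 ± 4.67% in control and 17.7 ± 0.851% in KO-labelled adipogenic libraries (SD, n = 3 each). Loxl2 held 12.9 ± 0.475% of the lysyl oxidases in control and 7.79 ± 0.303% in KO-labelled adipogenic libraries, and Loxl3 held 11.7 ± 2.97% and 15.6 ± 0.335% (SD, n = 3 each). Lox held 61.7 to 67.4% as means. The ratio of Lox to Loxl3 was nearly constant in osteogenic medium, with 3.28 to 3.29 in control and 3.32 to 3.39 in KO-labelled libraries, and was 6.46, 4.15 and 7.0 in control and 4.19 to 4.39 in KO-labelled adipogenic libraries. The summed lysyl oxidase level rose from 621 ± 66.1 to 834 ± 32.9 FPKM in adipogenic medium without overlap (SD, n = 3 each, exact permutation p = 0.1, two-sided). An exact permutation test of 3 against 3 libraries cannot go below 0.1, and none of the 56 tests of sums and shares had an adjusted p under 0.147.

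Other genes of the same pathway were taken from a fixed list of 28, of which 24 were tested. In osteogenic medium 3 were called higher and none lower in KO-labelled libraries, with a median fold change of 0.111, and 8 were higher and 2 lower without control adipogenic library 2. Over all genes 9.09% were called, and 22.2% without that library. Adamts14, which encodes a procollagen N-proteinase, changed by 0.36 (limma adjusted p = 0.0332), P3h3 of the prolyl 3-hydroxylase family by 0.31 (limma adjusted p = 0.00605) and Crtap, a partner of prolyl 3-hydroxylase 1, by 0.21 (limma adjusted p = 0.00885). The Adamts14 call was lost on leaving out any osteogenic library, control or KO-labelled (limma adjusted p of 0.0763 to 0.115). In adipogenic medium 5 were higher and 5 lower, with a median of -0.033, and 5 and 13 without control adipogenic library 2, with a median of -0.169. Over all genes 33.2% were called, and 51.0% without that library. The higher ones were Loxl4 at 0.79 (limma adjusted p = 5.82e-05), which is a lysyl oxidase, Tll1 at 0.56 (0.00587), a relative of BMP1 near 1 FPKM, P4ha3 at 0.54 (0.000133), P3h4 at 0.50 (0.000417) and Pcolce2 at 0.31 (0.0048). The lower ones were Adamts14 at -0.69 (0.00041), the chaperone gene Hsp90b1 at -0.67 (0.000102), the vesicle coat gene Sec24d at -0.48 (0.0131, and 0.0515 without control adipogenic library 1), the disulfide isomerase gene Pdia3 at -0.44 (0.00178) and P3h3 at -0.28 (0.0032), all as limma adjusted p. P4hb, whose product is the β subunit that binds the α subunits, stood at 395 ± 68.4 FPKM in control and 340 ± 18.2 FPKM in KO-labelled adipogenic libraries (SD, n = 3 each, log2 fold change -0.20, limma adjusted p = 0.17, and 0.000226 at -0.36 without control adipogenic library 2). Bmp1, whose product PCOLCE enhances, changed by 0.29 in osteogenic (limma adjusted p = 0.213) and -0.02 in adipogenic medium (limma adjusted p = 0.909). P4ha3 moved against P4ha1 and P4ha2, with 10.6, 12.0 and 10.6 FPKM in control and 16.1, 16.4 and 17.1 FPKM in KO-labelled adipogenic libraries.

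Of the main substrates, Col1a1 and Col3a1 were called for genotype in neither medium and Col1a2 was called in osteogenic medium. Col1a1 stood at 718, 587 and 642 FPKM in control and 744, 620.3 and 717 FPKM in KO-labelled osteogenic libraries, and at 1073, 819 and 935 FPKM in control and 891, 906 and 905 FPKM in KO-labelled adipogenic libraries. The genotypes overlapped in both media (0.10 and -0.06, limma adjusted p = 0.66 and 0.721). Col1a2 changed by 0.28 in osteogenic (limma adjusted p = 0.0242, lost without control osteogenic library 2 or 3 at 0.101 and 0.0826 or KO-labelled osteogenic library 1 or 3 at 0.0984 and 0.105) and by 0.01 in adipogenic medium (limma adjusted p = 0.895), and Col3a1 by 0.22 (limma adjusted p = 0.4) and -0.16 (limma adjusted p = 0.405, and 0.00622 at -0.35 without control adipogenic library 2). The ratio of Serpinh1 to Col1a1 was 0.3 to 0.346 in control and 0.365 to 0.401 in KO-labelled osteogenic libraries, and 0.285 to 0.307 in control and 0.320 to 0.334 in KO-labelled adipogenic libraries. Of 9 fibrillar collagen genes tested 4 were called higher and none lower in each medium (medians of 0.217 and 0.196), led by the minor chains Col2a1 in osteogenic (1.02, limma adjusted p = 0.00282) and Col11a1 in adipogenic medium (1.20, limma adjusted p = 4.31e-05). Without control adipogenic library 2 the counts were 4 and 1 in osteogenic and 4 and 2 in adipogenic medium. Of all genes 9.09% were called in osteogenic and 33.2% in adipogenic medium, and 22.2% and 51.0% without that library. Genes of ascorbate uptake and recycling were few, with 5 tested. In osteogenic medium 1 was called higher, Gsto1 (0.27, limma adjusted p = 0.0141, lost without control osteogenic library 1 or 2 at 0.0596 and 0.0628 or KO-labelled osteogenic library 1 or 3 at 0.0599 and 0.059), and in adipogenic medium 1 was higher and 3 lower, among them Txnrd1 (-1.77, limma adjusted p = 4.77e-05) and the ascorbate transporter gene Slc23a2 (-0.48, limma adjusted p = 0.000275). Slc2a1, also lower at -1.01, is on the hypoxia-induced list too. Its call held in 1 of the 12 fits without 1 library. Of 11 TGF-β-induced genes, Col1a1 among them, 2 were higher and 1 lower in osteogenic and 7 higher and 1 lower in adipogenic medium, the latter with Ccn2 at 0.81 (limma adjusted p = 0.000258). This list also shares genes with those of small proteoglycans and of elastic fibre genes.

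Markers of other cell types moved with genotype beside these results. The shares of all genes called were 9.09% in osteogenic and 33.2% in adipogenic medium (22.2% and 51.0% without control adipogenic library 2). Of 11 mesenchymal markers tested 3 were called higher and none lower in osteogenic and 6 higher and 2 lower in adipogenic medium (medians of 0.201 and 0.357), where Pdgfrb changed by 0.82 and Ly6a by -0.90 (limma adjusted p = 0.000126 and 0.000548). Their summed level was 507 to 518 FPKM in control and 566 to 596 FPKM in KO-labelled osteogenic libraries, and 553 to 568 FPKM in control and 619 to 644 FPKM in KO-labelled adipogenic libraries. Of 14 macrophage markers 3 were called lower and none higher in osteogenic medium, while their summed level was higher in every KO-labelled than in every control osteogenic library. Lyz2, the most abundant of them, had means of 9182 ± 204 FPKM in control and 11113 ± 118 FPKM in KO-labelled osteogenic libraries (SD, n = 3 each, limma adjusted p = 0.657). Endothelial markers were low, with 4 of 8 tested and a sum of 3.26 to 3.36 FPKM in control and 9.12 to 10.0 FPKM in KO-labelled osteogenic libraries. There 3 were called higher, Cdh5 by 1.20, Emcn by 1.06 and Pecam1 by 0.80 (limma adjusted p = 0.000375, 0.000102 and 0.0115), and in adipogenic medium 2 were higher. Of 4 adipocyte markers tested of 8, 1 was lower in osteogenic and 2 were higher in adipogenic medium, Fabp4 by 1.29 and Plin4 by 1.04 (limma adjusted p = 9.8e-05 and 0.0042). Of 6 osteoblast markers tested of 8, 1 was lower in osteogenic and 3 were higher in adipogenic medium, the latter with Ibsp at 1.26 (limma adjusted p = 0.00081). The summed level of the 8 did not rise with these calls. It was 69.7, 38.3 and 60.7 FPKM in control and 42.8, 51.4 and 53.0 FPKM in KO-labelled adipogenic libraries. In osteogenic medium 5 mesenchymal markers were higher and 1 lower without control adipogenic library 2, and 1 macrophage marker was higher and 5 lower. In adipogenic medium it was then 6 and 3 for mesenchymal, 4 and 0 for adipocyte, 5 and 1 for osteoblast and 3 and 1 for endothelial markers. The part of these cell types in the values of Serpinh1, Pcolce, Lox and Loxl3 was not tested.

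For the 4 genes that varied most over the 12 libraries, the genes with the most similar profile were sought by the mean absolute difference of the centred log2(FPKM + 1). Closest to Plod2 (SD 0.465) were Fndc1, Slit3 and Maff, with differences of 0.0591, 0.0703 and 0.0928, where the median gene differed by 0.437. Closest to P4ha2 (SD 0.449) were Ldha, which encodes a lactate dehydrogenase subunit and is on the hypoxia-induced list, Ogfr and Itga9, with differences of 0.0529, 0.0755 and 0.0771, where the median gene differed by 0.356. Closest to Lox (SD 0.345) were Lama4, Mark1 and Sipa1l1, with differences of 0.0444, 0.0673 and 0.0679 and a median of 0.325. Closest to Loxl3 (SD 0.339) were Hic1, Bdnf and Ptprd, with differences of 0.0638, 0.0643 and 0.0646 and a median of 0.297. These are descriptions over 12 libraries that share 4 groups.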

How the data were processed

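RNA-seq of 12 libraries was used, grouped by their labels. The authors deposited 1 table of FPKM with a column per library. The submitters' processing notes name Bowtie 0.12.2 and the build mm9, the study's software list names HISAT2 and Ballgown, and annotation, strand and filters were not given in the sources used here. Gene symbols, coordinates and exonic lengths came from GENCODE M21 on GRCm38, which may not be the authors' build, and 54409 of 54532 identifiers had a symbol. Fragments were recovered from the steps between low FPKM values, and of values under 30 fragments 98.2% to 98.4% were whole multiples within 0.02, against 4% by chance. Intervals between such counts would cover counting error only.

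The 12871 genes that reached 1 FPKM in 3 or more libraries were tested with limma 3.58.1 in R 4.3.3 on log2(FPKM + 1), with a mean for each of 4 groups, a trend of variance on mean and Benjamini-Hochberg adjustment over all of them, and called at an adjusted p under 0.05. The scale understates changes of low genes. Sums and shares used two-sided exact permutation tests. Tables and figures were made in Python 3.11.15 with numpy 2.4.6, pandas 2.3.3 and matplotlib 3.10.9. Promoter windows were those of RefSeq on GRCm38.p6. The members and lists were chosen with earlier results of these data known.

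Named were the 10 genes, Chd7, up to 10 other collagen-processing genes with the largest called genotype changes, Col1a1, Col1a2 and Col3a1, up to 3 called genes of each other list, and the 3 closest profiles of 4 genes. Outside this rule, and after their values were seen, P4hb, Plod3, Bmp1, Lyz2, Thy1, Adipoq and Lep were named. The lists were other collagen-processing genes, fibrillar collagens, elastic fibre genes, small proteoglycans, ascorbate handling, hypoxia-induced, TGF-β-induced and ER folding genes, and markers of macrophages, mesenchymal, endothelial and adipocyte cells and osteoblasts. Alternatives were a pseudocount of 0.1, no filter, TPM, median-ratio scaling, no trend, only the groups compared, the replicate number as a block, array weights, voom on recovered fragments, and each library left out.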

Additional observations from a re-analysis of the deposited data

Results flagged for a closer look

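The genotype effect in adipogenic medium differed from that in osteogenic medium for 3 of the 10 genes, each by the limma interaction term over all 12 libraries. Of all genes 20.4% were called for this difference, and 42.2% without control adipogenic library 2. Loxl3 differed by 0.71 on the log2 scale (limma adjusted p = 0.00291), with an effect of 0.16 in osteogenic and 0.87 in adipogenic medium. Plod1 differed by 0.63 (limma adjusted p = 0.000697), lower in all 3 KO-labelled osteogenic libraries and higher in all 3 KO-labelled adipogenic libraries than in every control library of the same medium. Loxl2 differed by -0.51 (limma adjusted p = 0.0196), with an effect of 0.22 in osteogenic and -0.29 in adipogenic medium. Without control adipogenic library 2, which stood apart from its group, the values were 0.81 for Loxl3, 0.64 for Plod1 and -0.62 for Loxl2 (limma adjusted p = 2.27e-05, 0.000238 and 0.000572). Ratios within a library, which no scaling changes, gave Plod1 to Plod2 as 2.88 to 3.06 in control and 1.77 to 2.0 in KO-labelled osteogenic libraries. In adipogenic medium the ratios overlapped, with 1.02, 1.85 and 0.989 in control and 1.09 to 1.27 in KO-labelled libraries. The mean share of Plod1 in the lysyl hydroxylases was 25.3% and 25.9% there. The ratio thus separated the genotypes in osteogenic medium only. Groups of 3 libraries were not searched for single outlying values.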

How the results depend on the processing

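Counts of calls changed with the libraries left out and with how their spread was pooled. For genotype in osteogenic medium 1170 genes were called, with TPM 526, with only the groups compared 3418, with array weights 3660 and on leaving out 1 library 532 to 2854. In adipogenic medium 4276 were called, with only the groups compared 1671, with array weights 7186 and on leaving out 1 library 2791 to 6569. The difference between media gave 2630, with array weights 6325 and on leaving out 1 library 1798 to 5434. The medium comparison gave 2935 in control cells, with only the groups compared 490, with array weights 6826 and on leaving out 1 library 1361 to 6156, and 3592 in KO-labelled cells, with array weights 6048 and on leaving out 1 library 2500 to 5466. Of the 10 genes, genotype in osteogenic medium called 3 (8 with only the groups compared, 8 with array weights, 1 to 8 without 1 library), in adipogenic medium 6 (2 with only the groups compared, 3 to 7 without 1 library), the difference between media 3 (9 with array weights, 2 to 9 without 1 library), and the medium comparison 8 in control (2 with only the groups compared, 4 to 9 without 1 library) and 5 in KO-labelled cells (3 with no filter, 8 with only the groups compared, 9 with array weights, 3 to 9 without 1 library). Of all genes 9.09%, 33.2%, 20.4%, 22.8% and 27.9% were called in these comparisons, in the same order, with the main settings. For medium in KO-labelled cells, 2595 to 6048 of all genes were called over the settings that left out no library, the replicate block among them. With only the groups compared, the calls left for genotype in adipogenic medium were Loxl3 and Pcolce. For medium in control cells they were Loxl2 and Plod1. None of the 10 genes turned a called direction. The Plod2 difference between media changed sign, and was called only without control adipogenic library 2, at -0.22 (limma adjusted p = 0.0136). It was 0.04 with all libraries (limma adjusted p = 0.92) and up to 0.19 on leaving out another. Libraries with equal numbers did not deviate together throughout (r of 0.466, 0.397 and -0.286 for the adipogenic genotypes), and 4 of 6 adipogenic libraries correlated best with their own number, so the numbers were not taken as pairs. With the replicate block 744 genes were called for genotype in osteogenic medium, 1943 for medium in control cells, and 3 of the 10 genes for medium in KO-labelled cells. Under the block Pcolce in osteogenic (limma adjusted p = 0.0521), Loxl2 in adipogenic medium (0.0676), the Loxl2 difference between media (0.0526), and P4ha1 in control (0.0571) and Loxl3 and Pcolce in KO-labelled cells (0.0685 and 0.103) between media lost their calls. Voom on recovered fragments called 1207 genes for genotype in osteogenic and 4199 in adipogenic medium, with 3 and 6 of the 10. Median-ratio scaling could move nothing, since its factors were the same for all 12 libraries. Of the called genes from the other lists, 13 of 29 in osteogenic and 37 of 44 in adipogenic medium held in all 12 fits that left out 1 library. Each of the 10 genes had 1421 fragments or more in every library, so precision is limited by the 3 libraries per group.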

Other observations

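Elastic fibre genes, whose elastin is another substrate of lysyl oxidases, were expressed while elastin itself was barely detected. Eln was at 0.0387 FPKM or less as a group mean, and 12 of 16 genes of the list were tested. Of all genes 9.09% were called for genotype in osteogenic and 33.2% in adipogenic medium (22.2% and 51.0% without control adipogenic library 2). In osteogenic medium 6 were called higher and none lower in KO-labelled libraries, with a median of 0.284, and 8 and 0 without control adipogenic library 2. Fbln1 changed by 0.67 (limma adjusted p = 0.00211), Fbln5, whose product binds lysyl oxidase-like 1, by 0.52 (limma adjusted p = 0.00316) and Mfap5 by 0.52 (limma adjusted p = 0.00299). In adipogenic medium 6 were higher and 5 lower, also without that library, where Mfap2 changed by -1.38, Emilin1 by -0.94 and Fbln2 by 0.79 (limma adjusted p = 0.000572, 0.000898 and 0.000101). Of 8 small proteoglycan and matrix genes tested, which include regulators of fibril width, 3 were higher and 1 lower in osteogenic medium, with Sparc at 0.47, Fn1 at 0.37 and Bgn at 0.36 (limma adjusted p = 0.00282, 0.012 and 0.000659). The Fn1 call was lost without control osteogenic library 2 (limma adjusted p = 0.0598) or KO-labelled osteogenic library 1 or 3 (limma adjusted p = 0.0543 and 0.059). In adipogenic medium 4 were higher and 1 lower, with Ogn at 1.27, Fmod at 0.84 and Dcn at -0.63 (limma adjusted p = 0.00151, 0.000774 and 0.00787). Fmod, which encodes fibromodulin, rose from 37.2 ± 7.63 to 66.5 ± 1.11 FPKM (SD, n = 3 each).

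General folding genes of the endoplasmic reticulum were lower in KO-labelled adipogenic libraries. Of 12 tested, limma called 0 in osteogenic medium (2 at an unadjusted p under 0.05, and 1 called with voom on recovered fragments). In adipogenic medium 9 were lower and none higher in KO-labelled libraries, with a median of -0.476, and 10 were lower and 1 higher without control adipogenic library 2. Of all genes 33.2% were called in this comparison, and 51.0% without that library. Sdf2l1 changed by -0.84, Hsp90b1 by -0.67 and Pdia6 by -0.54 (limma adjusted p = 8.18e-05, 0.000102 and 0.00197), while Serpinh1 changed by 0.06 (limma adjusted p = 0.52). Hsp90b1 is also on the list of other collagen-processing genes and was counted there too. The summed level of the list was 1894 and 1901 FPKM in control adipogenic libraries 1 and 3, 1501 FPKM in library 2 and 1224 to 1279.9 FPKM in KO-labelled adipogenic libraries.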
